A study of Oryctolagus cuniculus with 12 samples.

Results

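KRT75 (ENSOCUG00000002622) and KRT82 (ENSOCUG00000000501) are type II keratins, and they are 2 of the 17301 genes measured in each library. They were chosen by the authors' own fold changes and p-values, that is, because both are named in the deposited tables of differing genes. KRT75 is listed in LPS against Control and in LPS+CsA against LPS, and KRT82 in LPS+CsA against LPS. Those 2 comparisons therefore decided the choice, and in them the keratins are described without a test. Both genes passed the filter on low values, which 12794 genes did.

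Keratins are the intermediate filament proteins of epithelial cells. A type II chain pairs with a type I chain, and the dimers assemble into filaments that are anchored at desmosomes and carry mechanical load. In human and mouse, KRT75 is known from the companion layer of the hair follicle and from nail, and KRT82 from the cuticle of the hair shaft. The simple epithelium that lines the uterus and its glands is known for KRT8, KRT18 and KRT19 instead.

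Messenger RNA of the uterine body was sequenced from 12 New Zealand White rabbits, 3 in each of 4 groups, with 1 library per animal. All animals had their cycle synchronised with eCG and hCG. Control animals received saline into the reproductive tract and the vehicle of cyclosporine A into muscle, and the LPS group received lipopolysaccharide of Gram-negative bacteria at 4 mg/kg with that vehicle. The CsA group received saline and cyclosporine A, an inhibitor of calcineurin and T cell activation, at 20 mg/kg, and the LPS+CsA group received both agents. The uterine body was collected 3 h into treatment. The sample labels name the uterus in one place and the vagina in another as the site of infusion, name the vehicle once as CsA solvent and once as saline, and do not settle whether CsA was given with or after the infusion. No age is given. Levels are in FPKM, fragments per kilobase of transcript scaled to library size, and the FPKM sums of the libraries lay between 579986 and 747163.

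KRT75 was lowest in the LPS group and highest, at similar means, in Control and LPS+CsA. It stood at 32.1, 18.5 and 18.3 FPKM in Control 1, 2 and 3, at 4.90, 5.60 and 6.58 in LPS, at 11.9, 5.54 and 15.1 in CsA, and at 25.7, 13.0 and 29.2 in LPS+CsA. Every LPS library lay below every Control and every LPS+CsA library, and CsA 2 lay among the LPS libraries. The group means were 23.0 ± 7.91 FPKM in Control, 5.69 ± 0.846 in LPS, 10.9 ± 4.87 in CsA and 22.6 ± 8.52 in LPS+CsA (SD, n = 3). In the order LPS, CsA, LPS+CsA and Control, each group's range overlapped that of its neighbour. The gene stood above 85.2% of all genes in Control 1 and above 47.8% in LPS 1, its highest and lowest place in a library.

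KRT82 was expressed at lower FPKM and had a different order of groups. Its level was 5.68, 2.64 and 4.89 FPKM in Control, 2.27, 2.65 and 1.92 in LPS, 2.38, 1.11 and 1.98 in CsA, and 5.99, 3.81 and 7.91 in LPS+CsA. All LPS+CsA libraries lay above all LPS and all CsA libraries, while Control 2 and LPS 2 were nearly equal, so that Control and LPS overlapped. The means were 4.40 ± 1.58 FPKM in Control, 2.28 ± 0.365 in LPS, 1.82 ± 0.646 in CsA and 5.90 ± 2.05 in LPS+CsA (SD, n = 3). In the order CsA, LPS, Control and LPS+CsA, neighbouring groups again overlapped.

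**Figure D1:**
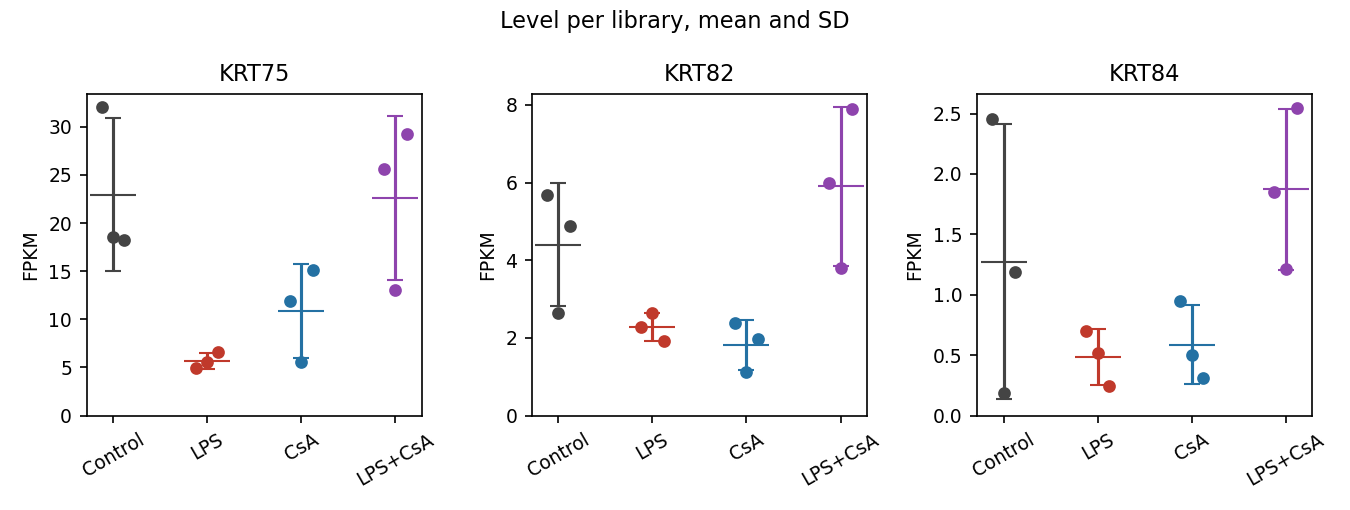
FPKM of KRT75, KRT82 and the neighbouring keratin KRT84 in each of the 12 libraries (points), with the group mean (bar) and SD over 3 animals (error bar). KRT75 in LPS (4.90 to 6.58 FPKM) lies below every Control and LPS+CsA library, and KRT82 in CsA (1.11 to 2.38 FPKM) lies below every Control and LPS+CsA library.

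The spread between animals was of the same order for both keratins and smallest in the LPS group. The coefficient of variation of KRT75 was 14.9% in LPS and 34.4%, 44.8% and 37.6% in Control, CsA and LPS+CsA. For KRT82 it was 16.0% in LPS and 35.8%, 35.4% and 34.7% in the other groups. In bulk tissue fewer cells of a type and less RNA per cell cannot be told apart, so these levels may reflect either.

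The authors' deposited tables give read counts for 9 libraries of KRT75 and 6 of KRT82. In Control, 374, 187 and 203 reads were counted for KRT75. Its LPS libraries had 54, 67 and 78, and its LPS+CsA libraries 278, 149 and 325. The LPS libraries of KRT82 held 85, 104 and 77 reads, and 234, 150 and 319 were counted with CsA added. Every LPS library had fewer reads of either gene than every other library with a count. If these are raw reads, the exact Poisson 95% interval of KRT75 is 40.6 to 70.5 reads in LPS 1 and 126 to 175 in LPS+CsA 2, the lowest library of its group. These intervals cover counting error only, not the spread between animals. One FPKM of KRT75 corresponded to 10.1 to 12.0 reads and one FPKM of KRT82 to 37.4 to 40.3, against a median of 49.9 over 358 listed genes with at least 10 reads in 6 or more libraries. The comparison of levels between these genes depends on the lengths of the authors' gene models, which are not given. Keratins of one type are similar in sequence, and the sources used here do not say how reads that match several of them were assigned, so the split between them is uncertain.

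**Figure D2:**
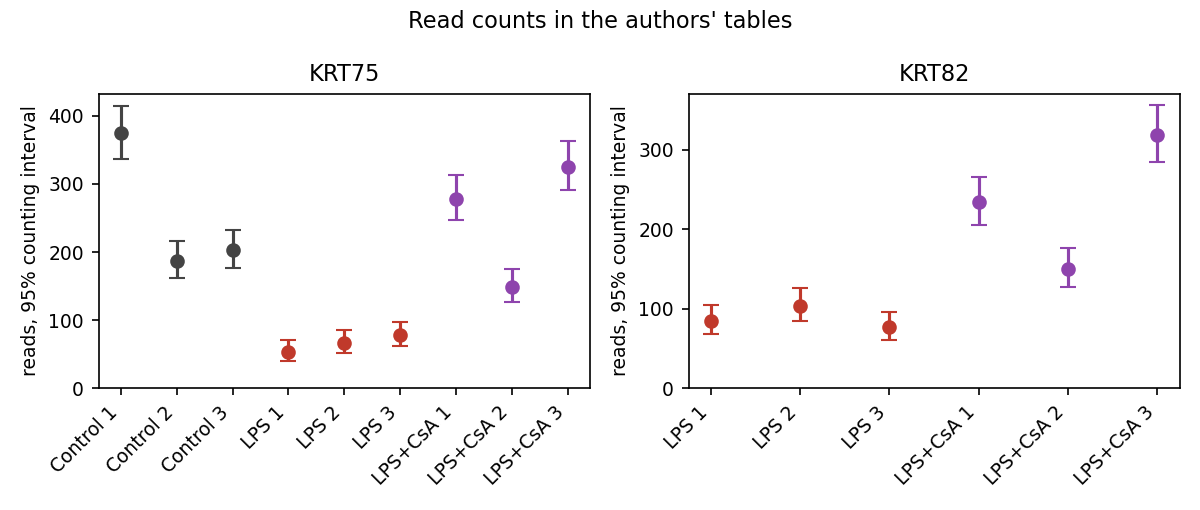
Reads of KRT75 (9 libraries) and KRT82 (6 libraries) in the authors' deposited tables, with exact Poisson 95% intervals as bars. The 3 LPS libraries hold 54 to 78 reads of KRT75 and 77 to 104 of KRT82, fewer than every other library shown.

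The comparisons that chose the genes are given as description. From Control to LPS the mean of KRT75 was 4.03-fold lower, a log2 difference of -1.80 ± 0.37 (SE) on the log2(FPKM + 1) scale, and from LPS to LPS+CsA it was 3.98-fold higher, at 1.75 ± 0.37. KRT75 did not overlap between the groups in either comparison. Of all genes tested, 5.24% had every LPS library below every Control library and 8.42% every one above. For LPS+CsA against LPS, 8.81% had all LPS+CsA libraries higher and 6.86% all lower. Limma called 0 genes in both comparisons (0%), with 839 and 1031 genes at an unadjusted p under 0.05. For KRT82 the means differed 1.93-fold, lower in LPS, with a log2 difference of -0.68 ± 0.28, and 2.59-fold, higher in LPS+CsA, with 1.03 ± 0.28. In the authors' deposited tables KRT75 has a log2 fold change of -1.95 for LPS against Control, ranked 21 by p among 283 genes, and of 1.93 for LPS+CsA against LPS, ranked 17 among 234. KRT82 has 1.41 there for LPS+CsA against LPS, ranked 58. No gene in the authors' deposited tables has an absolute log2 fold change under 1.00, and KRT82, whose means differ by less than 2-fold between LPS and Control, is not listed in the first.

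The CsA libraries were not in the 2 comparisons that chose the genes, though the members were chosen with earlier results of these data known. Against Control, both keratins stood lower in CsA, and neither passed the test over all genes. The mean of KRT75 was 2.12-fold lower, with a log2 difference of -1.06 ± 0.37 (SE; 95% interval -1.87 to -0.25; limma, two-sided, adjusted p = 0.932). The mean of KRT82 was 2.41-fold lower, with a log2 difference of -0.92 ± 0.28 (95% interval -1.54 to -0.29; limma adjusted p = 0.932). All 3 CsA libraries lay below all 3 Control libraries for both genes, a pattern that 3.68% of the tested genes had in that direction, against 5.75% in the other. The exact permutation test gave p = 0.10 for each, two-sided, which is the smallest value that 3 against 3 animals allow. Limma called 0 of the 12794 genes in this comparison (0% of those tested), with an unadjusted p under 0.05 for 594, of which 219 (1.71%) were lower in CsA and 375 (2.93%) higher. The unadjusted p was 0.0147 for KRT75 and 0.00806 for KRT82. Since the Control libraries had been high for KRT75 in the comparison that selected it, this difference shares that side of the choice.

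With CsA present, both keratins stood higher in LPS-infused than in saline-infused animals, and neither passed the test over all genes. KRT82 stood 3.23-fold higher in LPS+CsA than in CsA by mean, with a log2 difference of 1.27 ± 0.28 (SE; 95% interval 0.65 to 1.89; limma adjusted p = 0.696). The groups did not overlap for KRT82, which held for 6.51% of tested genes in that direction and for 6.04% in the other. KRT75 stood 2.09-fold higher, with a log2 difference of 1.02 ± 0.37 (95% interval 0.21 to 1.83; limma adjusted p = 0.707), and LPS+CsA 2 at 13.0 FPKM lay below CsA 3 at 15.1. The exact permutation test gave p = 0.20 for KRT75 and 0.10 for KRT82, two-sided, where 0.10 is the smallest possible. Limma called 0 genes here (0%), and 892 had an unadjusted p under 0.05, with 4.19% of all tested genes higher and 2.78% lower. The LPS+CsA libraries were on the higher side in the comparison that chose both genes, so this comparison is not separate from the choice either. The choice favours a difference in this direction, and the p-values do not allow for that.

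LPS+CsA and Control were close for KRT75, with a log2 difference of -0.05 ± 0.37 (SE; 95% interval -0.86 to 0.76). Both groups stood above LPS in the comparisons that chose KRT75, so this is given as a description and its test is not reported. That interval leaves room for a sizeable difference in either direction, so equal levels are not shown. The difference turned to 0.21 without Control 1 and to 0.29 without LPS+CsA 2. KRT82 was 0.35 ± 0.28 above Control (95% interval -0.27 to 0.98; limma adjusted p = 0.941), with overlapping groups, and its LPS+CsA libraries had also served in the choice. That choice favours a higher value in LPS+CsA, and the p-value does not allow for this. The difference of KRT82 was 0.09 without Control 2, 0.15 without LPS+CsA 3 and 0.59 without LPS+CsA 2. Limma called 0 genes (0%), and 617 had an unadjusted p under 0.05, with 3.57% of tested genes higher and 1.25% lower. The groups did not overlap for 6.88% of tested genes with LPS+CsA higher and for 3.01% with it lower.

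**Figure D3:**
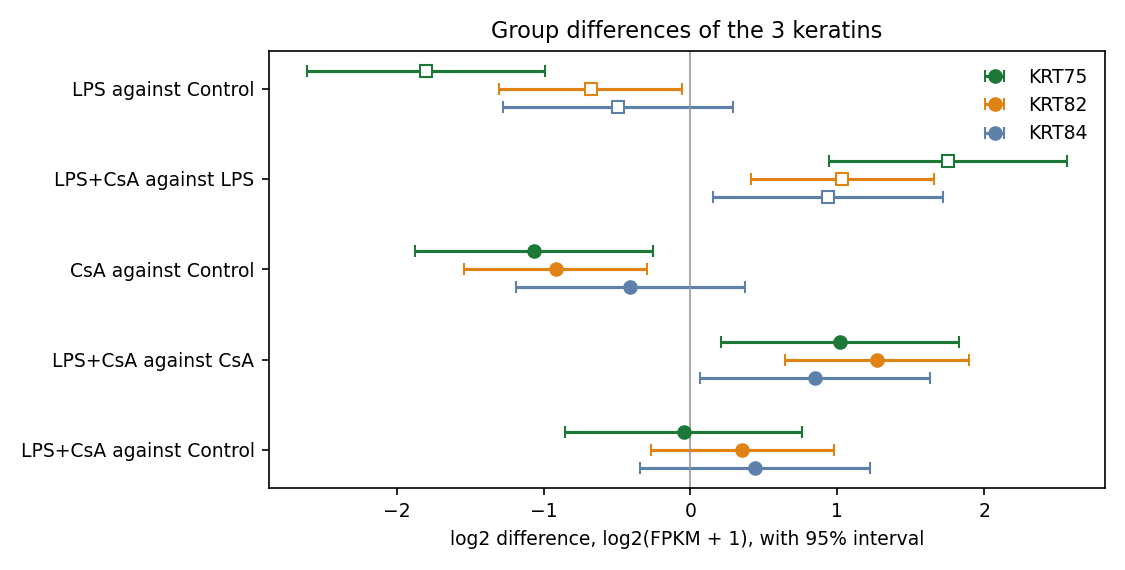
Log2 differences between groups of log2(FPKM + 1) for KRT75, KRT82 and KRT84, with limma's 95% intervals. Open squares mark the 2 comparisons that chose the genes, where no test is given, and filled circles mark the others. For KRT75 in LPS+CsA against Control, also a filled circle, the test is not reported. In LPS against Control KRT75 (-1.80) lies further from 0 than KRT82 (-0.68), and in LPS+CsA against CsA KRT82 (1.27) lies further than KRT75 (1.02).

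The keratins did not keep one ratio across the groups. KRT75 stood at 5.65, 7.02 and 3.74 times the FPKM of KRT82 in Control, at 2.15, 2.12 and 3.43 times in LPS, at 5.02, 4.98 and 7.61 times in CsA, and at 4.29, 3.42 and 3.70 times in LPS+CsA. The ratio was lowest in LPS 2 and LPS 1, and the LPS range lay below the Control and CsA ranges and overlapped that of LPS+CsA. The low LPS values of KRT75 were part of the choice of the genes, so these ratios are given without a test. The size of the ratio depends on the lengths of the authors' gene models. In reads, KRT75 had 54, 67 and 78 in LPS against 85, 104 and 77 for KRT82. In LPS+CsA it had 278, 149 and 325 against 234, 150 and 319.

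Across the 12 libraries KRT75 and KRT82 varied together. Pearson's r of log2(FPKM + 1) was 0.82 and Spearman's rho 0.77, and r was 0.78 without LPS 1 and CsA 2, the libraries farthest from the median of KRT75. Among 12793 other genes, KRT82 ranked 8 by likeness to KRT75, and KRT75 ranked 6 by likeness to KRT82. Part of this follows from choosing both genes on the same comparison, and r is given as a description. After subtracting each group's mean, which removes the differences between groups, r was 0.76, and KRT82 then ranked 170 for KRT75. Control 1 and LPS+CsA 3 were above their group means for both genes, by 0.51 and 0.43 on the log2 scale for KRT75 and by 0.35 and 0.41 for KRT82. LPS+CsA 2 and CsA 2 were below their group means for both, by -0.68 and -0.76 for KRT75 and -0.48 and -0.39 for KRT82. Control 2, which has the same replicate number, was at -0.25 for KRT75 and -0.52 for KRT82, and LPS 2 at -0.01 and 0.16. The part of the replicate number in this r was not tested.

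**Figure D4:**
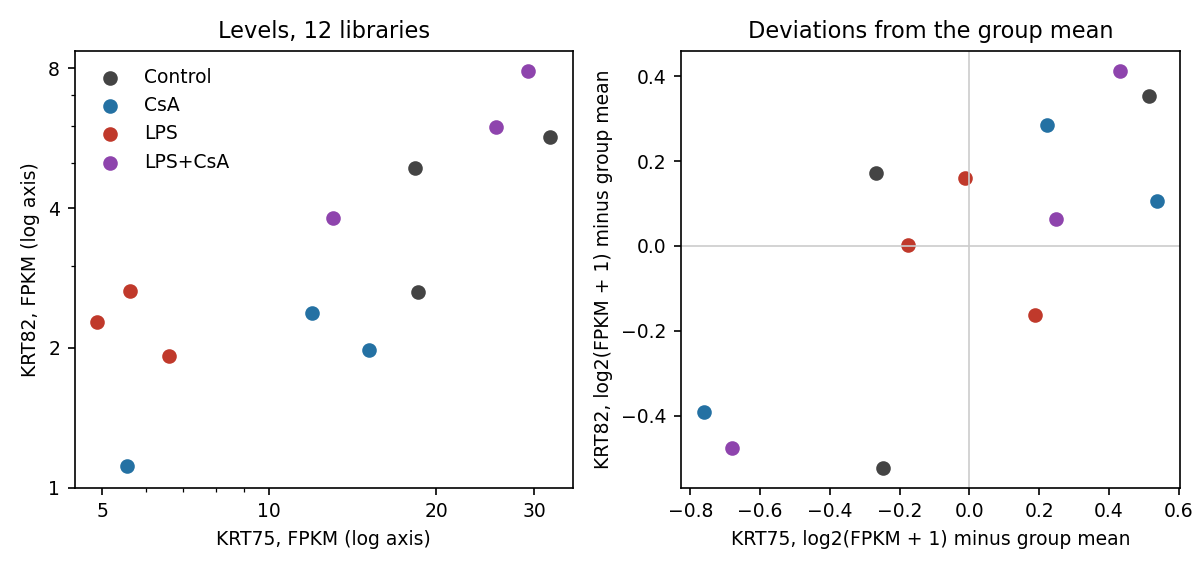
Left, FPKM of KRT82 against KRT75 on log axes, 1 point per library, coloured by group. Right, the same libraries as deviations of log2(FPKM + 1) from their group mean. The r was 0.82 for levels and 0.76 for deviations, Control 3 and LPS 3 deviate in opposite directions for the 2 genes, and CsA 2 and LPS+CsA 2 lie at the lower left of the right panel.

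Another type II keratin, KRT84 (ENSOCUG00000002612), known in human from hair, nail and tongue, was the gene most like KRT82. Over the 12 libraries its r with KRT82 was 0.87 (Spearman's rho 0.83), rank 1 of 12793. Its r with KRT75 was 0.68, rank 92. For deviations from group means its r was 0.82 with KRT82, rank 47, and 0.44 with KRT75, rank 1973. All 3 keratins are listed for LPS+CsA against LPS, so part of the likeness over libraries follows from that listing. KRT84 stood at 2.45, 0.184 and 1.19 FPKM in Control, 0.701, 0.515 and 0.244 in LPS, 0.947, 0.504 and 0.309 in CsA, and 1.85, 1.22 and 2.55 in LPS+CsA. Each LPS+CsA library lay above each LPS and CsA library, and Control held both the lowest of the 12 values and the second highest, next to LPS+CsA 3. Of all tested genes, 8.81% had every LPS+CsA library above every LPS library, and 6.51% above every CsA library. The comparison with LPS is also the one that listed KRT84. In the authors' deposited tables it had 10 to 28 reads in LPS and 50 to 106 in LPS+CsA, and a log2 fold change of 1.94 between those groups, ranked 66 by p. It did not pass in LPS+CsA against CsA (log2 difference 0.85 ± 0.35, SE; limma adjusted p = 0.710). That comparison shares the LPS+CsA libraries for which KRT84 was listed as higher.

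The 3 keratins are neighbours in the genome. The KEGG column of the authors' deposited tables pairs each of them with a gene number, and in the RefSeq annotation of the rabbit assembly mOryCun1.1 these genes follow one another in the order KRT84, KRT82, KRT75 with no other protein-coding gene between them. The genes listed for LPS+CsA against LPS could be placed in that annotation for 173 of 234 identifiers. They formed 1 run of 3 consecutive genes, which is the keratin run, and 2 runs of 2, which were CXCL11 with CXCL10 and RLA-DRB1 with an unnamed neighbour. For LPS against Control 195 of 283 could be placed, and they formed 7 runs of 2 and none of 3. The RefSeq table names 29 keratin genes, of which these 3 carry a symbol in the authors' tables. The levels of the other keratins in these libraries were not analysed here, because no file used here pairs their identifiers with names.

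Of the other structural genes of an epithelium few could be named. From the list of intermediate filament genes only IFFO1, an intermediate filament family orphan, had a name. It stood at 6.73 ± 0.992 FPKM in Control, 13.9 ± 12.9 in LPS, 7.89 ± 1.10 in CsA and 12.4 ± 10.5 in LPS+CsA (SD, n = 3), a pattern unlike that of the keratins, with r = 0.08 to KRT75 and 0.16 to KRT82. No member of the lists of 23 cornified envelope and hair genes and of 13 desmosome genes had a name in the tables.

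The gene most like KRT75 of all those tested was HBB2, a beta globin of red blood cells. Its r with KRT75 was 0.89 (Spearman's rho 0.88), rank 1 of 12793, and 0.81 for deviations from group means, rank 74. HBB2 stood at 374, 214 and 208 FPKM in Control, 108, 126 and 125 in LPS, 200.2, 138 and 169 in CsA, and 335, 119 and 249 in LPS+CsA. Control 1 and LPS+CsA 1 were the highest and LPS 1 the lowest. As a share of each gene's Control mean, KRT75 and HBB2 were at 139.8% and 140.9% in Control 1 and at 80.7% for both in Control 2, but in LPS KRT75 was at 21.3% to 28.7% and HBB2 at 40.8% to 47.7%. With KRT82 the r of HBB2 was 0.70, rank 72. ALAS2, which begins heme synthesis in red cell precursors, had r = 0.75 to KRT75 and 0.71 to KRT82, and its mean was 3.86 FPKM in Control, 1.76 in LPS, 1.76 in CsA and 2.88 in LPS+CsA. The list holds only these 2 genes, neither at 0 in any library, and their summed level ran from 210.7 to 379.6 FPKM in Control, 109.7 to 128.5 in LPS, 140.1 to 202.3 in CsA and 120.3 to 339.4 in LPS+CsA. HBB2 had its lowest group mean in LPS, as KRT75 did, ALAS2 was equally low in LPS and CsA, and the part of these genes in the result was not tested. The authors' table for LPS against Control holds both, so they too were picked on these libraries.

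**Figure D5:**
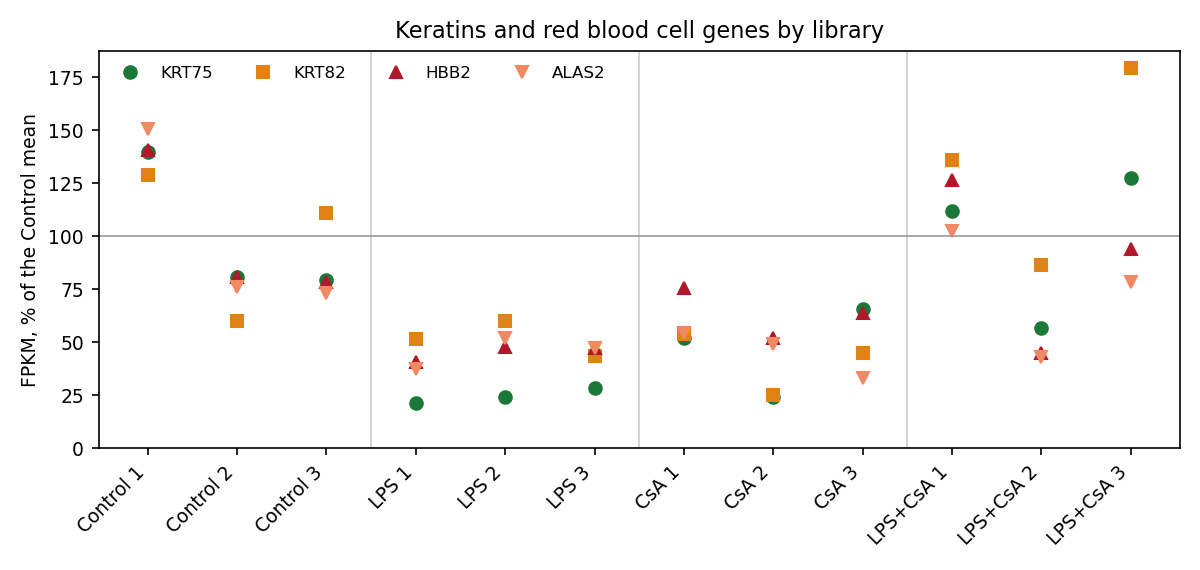
FPKM of KRT75, KRT82 and the red blood cell genes HBB2 and ALAS2 in each library, as a percentage of that gene's mean in Control. In the LPS libraries KRT75 lies at 21.3% to 28.7% and HBB2 at 40.8% to 47.7%, and in Control 2 both stand at 80.7%.

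Next to HBB2, IP6K3, a kinase of inositol phosphates, was nearest to KRT75 among all genes, with r = 0.87, and it also had r = 0.74 to KRT82. Its mean was 2.29 ± 0.689 FPKM in Control, 0.531 ± 0.0631 in LPS, 1.51 ± 1.69 in CsA and 2.53 ± 1.50 in LPS+CsA (SD, n = 3). Among genes with a symbol, KRT82 and then NRIP3 followed for KRT75, NRIP3 with 0.80, and SHISA2, known as an inhibitor of Wnt and FGF receptor maturation, with 0.77. SHISA2 differed from KRT75 in the CsA group, where it stood at 27.2 ± 11.9 FPKM against 23.4 ± 3.30 in Control. For KRT82 the genes after KRT84 and KRT75 were TNFSF15, a cytokine of the TNF family, with 0.79, IP6K3, and TMEM114 with 0.73. By deviations from group means, and among genes with a symbol, SLC34A2, a sodium-phosphate cotransporter of epithelia, led for KRT75 with 0.87, rank 15 of all, followed by SHISA2 with 0.82 and OPTC, a small leucine-rich proteoglycan, with 0.81. For KRT82, OPTC had 0.84, above KRT84. Every gene named here owes its symbol to the authors' tables, so the search among names was limited to genes picked on these libraries.

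Genes without a symbol came close as well. For KRT75 the nearest were ENSOCUG00000000655 with r = 0.86 and ENSOCUG00000024732 with 0.85, and for KRT82 ENSOCUG00000017162 with 0.87 and ENSOCUG00000003303 with 0.85. The authors' tables hold none of these 4. At r of 0.8 or more there were 11 genes for KRT75 and 8 for KRT82. On the other side, among genes with a symbol, the lowest r to KRT75 belonged to PPIA, the cyclophilin that binds cyclosporine, with -0.69, a gene with many near-identical copies in mammals, then CPXM2 with -0.65 and DTHD1 with -0.64. For KRT82 the lowest among genes with a symbol were LSM10 with -0.59, EFHD1 with -0.58 and CTSE, an aspartic protease, with -0.51.

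Markers of the cell types that a uterine sample could hold were mostly without a name. Of the simple luminal and gland epithelium list 1 of 9 could be read, SOX9, a transcription factor of gland epithelium. It stood at 3.63 ± 0.404 FPKM in Control, 2.49 ± 0.490 in LPS, 3.27 ± 1.14 in CsA and 5.97 ± 1.35 in LPS+CsA (SD, n = 3). Its r was 0.74 to KRT75 and 0.68 to KRT82 over the libraries, and 0.53 and 0.22 for deviations from group means. Of the hair follicle list 1 of 9 could be read, and that gene is KRT82 itself. Of the squamous or basal epithelium list 0 of 9 could be read, and of the stroma and smooth muscle lists 0 of 5 each. Whether skin, vaginal or other stratified epithelium was present in the samples, and whether the uterine body is marked as labelled, was therefore not tested. The ciliated epithelium genes FOXJ1 and CDC20B, 2 of 5 in their list, had r of -0.16 and -0.30 to KRT75 and 0.18 and 0.02 to KRT82. For deviations from group means they had 0.39 and 0.13 to KRT75, the opposite sign, and 0.37 and 0.23 to KRT82. FOXJ1 was at 0 in a Control library. Of the plasma cell list 3 of 3 and of the T cell list 1 of 3 could be read. Their r to KRT75 had opposite signs over libraries and within groups for 3 of these 4 genes. JCHAIN, MZB1 and TRAC had r of 0.45, 0.47 and 0.50 to KRT75 over the libraries, and -0.62, -0.67 and -0.65 for deviations from group means. DERL3, the other plasma cell gene, had 0.56 and 0.45. The summed plasma cell level ran from 37.3 to 131.8 FPKM in Control, 16.4 to 26.5 in LPS, 15.4 to 44.7 in CsA and 69.0 to 121.5 in LPS+CsA, and its part in the keratin levels was not tested.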

How the data were processed

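Per the submitters' processing notes, TopHat2, Cufflinks and Cuffnorm were used upstream; neither their versions nor the build is named in any source at hand. The authors deposited FPKM values of 17301 genes for each of 12 libraries, and comparison tables that, per the file headers, add for listed genes a read count in the compared libraries, a p-value and a log2 fold change. A header names edgeR for fold changes in one of the authors' tables. Whether the counts are raw is not stated, and library totals are not known, so depth is unknown. Symbols came from those tables, for 303 genes.

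The present fit kept genes reaching 1 FPKM in 3 or more libraries and used log2(FPKM + 1) with limma 3.58.1 in R 4.3.3, a mean per group, a variance trend, two-sided tests and Benjamini-Hochberg adjustment over 12794 genes at 5%. This scale understates differences of low genes. The fit was also run on simulated data with noise drawn independently for each gene and library, and the outcome is not given here. Likeness is Pearson's r over libraries. Named are the keratins, list genes with a symbol and, per keratin, the 5 highest and 3 lowest r with a symbol, the 3 highest by deviations and 2 identifiers without a symbol. One gene that this rule names is not reported here. The members and lists were chosen with earlier results of these data known. Libraries are separate animals per the labels. Other software was matplotlib 3.10.9, scipy 1.17.1, pandas 2.3.3, numpy 2.4.6 and Python 3.11.15. Alternatives were the pseudocount, filters, scalings, fits on compared groups, no variance trend, a replicate block and each library left out.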

Additional observations from a re-analysis of the deposited data

Results flagged for a closer look

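The LPS effect had opposite signs without and with CsA for the 3 keratins. Without CsA, every LPS library lay below the Control mean, and with CsA, every LPS+CsA library lay above the CsA mean. Single libraries still overlapped. For KRT82, Control 2 lay just below LPS 2, and for KRT84, Control 2 (0.184 FPKM) lay below every LPS library. For KRT75, LPS+CsA 2 (13.0 FPKM) lay below CsA 3 (15.1 FPKM). The LPS against Control difference of KRT84 was -0.49 (95% interval -1.28 to 0.29). How many of all tested genes show these patterns was not counted. The difference between the 2 effects was 2.82 ± 0.52 (SE) on the log2(FPKM + 1) scale for KRT75, 1.95 ± 0.40 for KRT82 and 1.34 ± 0.50 for KRT84. For this difference limma called 0 of all tested genes (0%). No test of it is given for the keratins, because the LPS and LPS+CsA libraries chose the genes. HBB2, the red blood cell gene nearest to KRT75, had 1.45 ± 0.49 in the same direction, and ALAS2 1.23 ± 0.39. Of the other marker genes, the plasma cell genes JCHAIN, MZB1 and DERL3 had 3.21 ± 0.76, 2.39 ± 0.62 and 1.02 ± 0.71, the T cell gene TRAC 1.49 ± 0.42 and the gland gene SOX9 1.13 ± 0.30. The ciliated cell genes FOXJ1 and CDC20B had -0.60 ± 0.85 and -0.80 ± 0.86. JCHAIN thus lay above all 3 keratins, and MZB1 above KRT82 and KRT84. These marker genes owe their symbols to the authors' tables, so they too were picked on these libraries. A large difference of this kind is therefore not particular to the keratins among the genes so picked. The part of these cell types in the keratin levels was not tested.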

How the results depend on the processing

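Under the alternatives run, no tested difference of KRT75 or KRT82 passed. KRT75 ranged from -1.33 to -0.68 on the log2 scale in CsA against Control (limma adjusted p from 0.691 to 1.00) and from 0.64 to 1.36 in LPS+CsA against CsA (0.517 to 0.974). KRT82 ranged from -1.22 to -0.72 (0.598 to 1.00) and from 1.06 to 1.64 (0.299 to 0.974). With 1 library left out, KRT75 in LPS+CsA against Control ranged from -0.26 to 0.29, turning positive without Control 1 (0.21) or LPS+CsA 2 (0.29). A pseudocount of 0.1 moved the difference between the LPS effects for KRT82 from 1.95 to 2.50 and for KRT84 from 1.34 to 2.39, and moved KRT84 from 0.94 to 1.78 in LPS+CsA against LPS and from 0.85 to 1.57 in LPS+CsA against CsA.

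Where limma called 0 genes, it called 2 without the filter in LPS against Control and 2 in LPS+CsA against LPS. Fitting only the compared groups gave 1 in LPS+CsA against LPS, 1 in LPS+CsA against Control and 1 in LPS+CsA against CsA. Leaving out a library gave 0 to 4 in CsA against Control, where 4 came without CsA 1 and 1 without LPS+CsA 3, and 0 to 1 in the other comparisons, with 1 reached without LPS 1, CsA 1 or LPS+CsA 3. The cause was not tested. KRT82 and KRT84 fall under a filter of a mean of 5 FPKM and have no value there. With the replicate number as a replicate block, KRT75 in CsA against Control stayed at -1.06 (limma adjusted p = 0.792), and 0 genes were called in each comparison. In that comparison the block lowered the SE of KRT75 from 0.37 to 0.29. The labels link libraries with the same number by that number only. Of such pairs, 8 of 18 had a correlation of deviations over 0.1, against 6 of 36 pairs with different numbers. The medians were 0.085 and -0.059. Whether the number marks a batch was not tested. With 3 animals per group and unknown depth, small differences were not detectable.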
